A study of Homo sapiens with 10 samples.

Results

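The clustered histone genes were followed with SLAM-seq, which marks newly made RNA, in 22RV1, a prostate cancer line that grows without androgen. Members were all protein-coding genes whose symbol begins with H1- and a digit, H2AC, H2BC, H3C or H4C and a digit. The 73 genes of GENCODE v44 described here lie mostly on chromosome 6, with 55, and chromosome 1, with 13. By transcript identifier, 39 of the 73 were matched to an interval of the count tables (below, members with an interval), out of 31015 genes so matched. H1-10 on chromosome 3 meets the rule by its symbol but lies outside the large histone clusters. The cells were untreated (control) or treated for 4 h with 20 µM SRPIN340, an inhibitor of the splicing kinase SRPK1, with 50 µM Endovion, a compound used in the study as an SRPK1 inhibitor, with THZ531, an inhibitor of the transcription kinase CDK12, or with THZ531 together with Endovion. The dose of THZ531 is given as 100 nM in one source and 150 nM in another. All 5 groups received 4-thiouridine for the last 10 min, and 2 libraries were analysed per group. No library without 4-thiouridine was used here, so the rate at which unlabelled RNA gives T>C reads is not known, and nothing in the labels says that the 2 libraries of a group came from separate cultures, so the p-values measure only the spread between these libraries.

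Histones package DNA into nucleosomes, with H2A, H2B, H3 and H4 in the core and H1 as the linker. Most core histone genes are transcribed in S phase, and their mRNAs end in a conserved stem-loop, bound by SLBP, in place of a poly(A) tail. Some histone genes also give transcripts that run past the stem-loop to a polyadenylation signal, while H1-10 is expressed outside S phase and carries a poly(A) tail. The libraries were primed from poly(A), so they hold the 3′ ends of polyadenylated RNA.

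Each library held between 19315448 and 30047769 reads on genes (243507530 in all), of which 1011597 to 1576117 carried at least 1 T>C conversion (T>C reads, here called nascent). The labelled share, the T>C reads as a share of all reads, was 5.04% to 5.7% over all genes. It was 5.7% and 5.63% in the control libraries and 5.04% and 5.24% in those of THZ531 with Endovion. All 10 markers of prostate epithelium were at 1 CPM (reads scaled to the size of the library) or more in every library. Of 3 fibroblast markers COL1A1 passed this bar too, at 1.62 to 3.27 CPM. Their summed level was 2.03 to 3.47 CPM, with COL1A2 at 0. The sums of the blood and endothelium markers did not exceed 0.233 CPM, with CD3E and VWF at 0. The prostate markers summed to 1420 to 1600 CPM in the 4 libraries with THZ531 and 1830 to 2010 in the others, and their part in the results below was not tested.

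Reads were spread very unevenly over the clustered histone genes. Of the 39 members with an interval, 30 had at least 1 read in the 10 libraries together, 19 had a read in every library and 22 had a T>C read. The members held 875366 reads, between 0.305% and 0.438% of the reads on genes of a library. A single gene, H4C3, which encodes the core histone H4, held 92.4% to 94.4% of the member reads of each library and ranked between 8 and 11 among all genes by reads. H1-10, a linker histone, followed with 46096 reads. The other 37 members with an interval held 12428 reads together. Linker histones had reads for 2 of 5 members with an interval, H2A for 7 of 7, H2B for 11 of 13, H3 for 3 of 5 and H4 for 7 of 9.

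**Figure D1:**
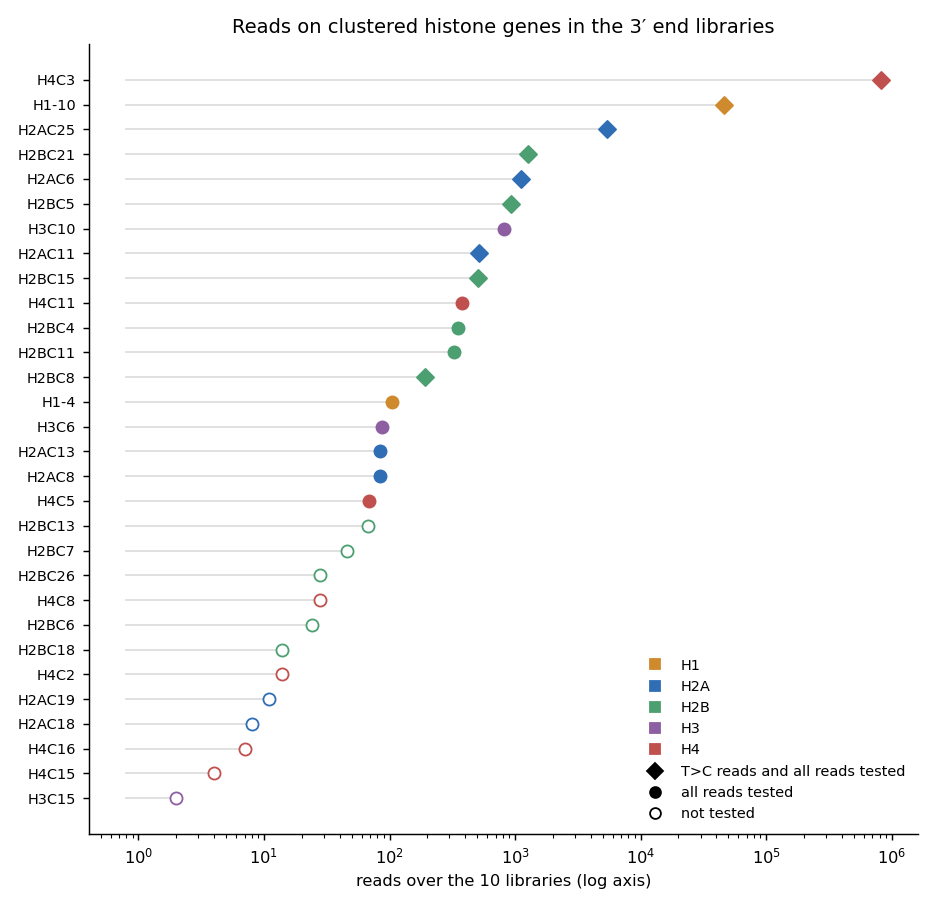
Reads over the 10 libraries (log axis) of the 30 clustered histone genes with at least 1 read, coloured by histone family. Diamonds were tested for T>C reads and all reads (9 genes), filled circles for all reads only (9 genes), and open circles were not tested. H4C3 stands at 816842 reads and H1-10 at 46096.

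In the plot of reads per gene, 18 members passed the filter on low counts for all reads and 9 of these also for T>C reads. H2BC13, an H2B gene, had a read in every library without passing. A further 11 members with reads did not pass either, among them H2AC18 and H2AC19, neighbouring H2A genes whose intervals share the same last bases, so that reads cannot be assigned between such copies with certainty. The tables list no multimapping reads for any interval of the series. That column therefore does not tell whether reads shared between copies were left out. H1-6, H1-7, H1-8, H2BC12L, H2BC9, H3C14, H3C8, H4C14 and H4C9 had an interval and 0 reads, which allows up to 3 counts of 243507530, or 0.0123 CPM. This limit covers reads assigned to the interval, and reads shared with a copy may be missing. For example, the interval of H3C14 has the same length (1209 bases) and T count (257) as that of H3C15. H1-6 and H1-7 are known as testis linker histones and H1-8 as the oocyte linker histone. The 34 members without a matched interval were not analysed here. Among them, H2AC16 had an unmatched interval with 171 reads, so the counts of captured members cover matched intervals only.

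The ends of the captured genes are shown because the stem-loop and the polyadenylation signal are the known ways for a histone mRNA to end. They were read from hg38, 5′ to 3′ on the strand of the gene. The stem-loop was searched as 6 paired bases that begin with GG and end with CC around a loop of 4 bases that begins with TT, within each interval and 100 bases downstream, on the strand of the gene. It was found at 33 of 45 member intervals (73.3%) and at 89 of 28397 intervals of all protein-coding genes (0.313%). In the lines below the capitals mark the stem and loop:
H4C3, chr6:26104312-26104337 (+): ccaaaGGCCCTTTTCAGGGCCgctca
H2AC25, chr1:228457364-228457389 (-): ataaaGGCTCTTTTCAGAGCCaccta
H2BC21, chr1:149886183-149886208 (-): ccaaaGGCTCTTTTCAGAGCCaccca
H2BC15, chr6:27839085-27839110 (+): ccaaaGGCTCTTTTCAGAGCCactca
H2BC5, chr6:26158582-26158607 (+): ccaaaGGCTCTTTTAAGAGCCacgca
The loops of H4C3, H2AC25, H2BC21 and H2BC15 have the same 4 bases, and the H2A and H2B genes share 1 stem that differs from that of H4C3.

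A polyadenylation signal (AATAAA or ATTAAA, on the strand of the gene) lay in the last 60 bases of 53.3% of member intervals, beside the 60.2% of all protein-coding intervals. The last signal of some of the members with most reads is shown in capitals, since the libraries were primed from poly(A):
H1-10, chr3:129314771-129314800 (-): ttgggcacAATAAAgcgtttaaacctttca
H2AC25, chr1:228456981-228457010 (-): tatctgatATTAAAagtatttatgatctct
H2BC21, chr1:149884461-149884490 (-): ttgttattAATAAAgttaccaattaattta
H2AC6, chr6:26139080-26139102 (+): catgaggtAATAAAaggtaatgc
H2AC11, chr6:27135261-27135290 (+): aaattcatAATAAAgtgaaatgttcaagtt
H4C3 had neither hexamer in its interval. It had a stretch rich in A, defined as at least 15 A in 20 bases, as did 11.1% of member intervals and 24.0% of all protein-coding intervals. H2BC8 had such a stretch too, and the A of both are in capitals:
H4C3, chr6:26104286-26104315 (+): ActtcAAAAAAcAAAAAcAAAAAAAcccAA
H2BC8, chr6:26215164-26215193 (-): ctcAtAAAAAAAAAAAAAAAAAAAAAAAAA
The H4C3 interval, chr6:26104260-26104310 on the + strand in hg38, spans 51 bases with 8 T, its A-rich stretch reaches 18 A in 20 bases, and its stem-loop begins 7 bases past its end. Whether the H4C3 reads were primed inside the transcript at this stretch was not tested.

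Labelled shares differed widely between member intervals. Of the 17 member intervals with at least 100 reads the median labelled share was 6.72% and the range 0.962% to 72.2%, against a median of 4.62% over 14286 intervals of all protein-coding genes. Over 25% of the reads were labelled in 3 of the 17 member intervals (17.6%) and in 102 of the 14286 (0.714%). These 3 were the interval of H2BC15 beside the gene at 72.2% of 234 reads, that of H2AC11 at 40.5% of 516 reads and that of H2BC8 at 29.7% of 192 reads, all chosen after their values were seen. Their T>C reads held 2.83, 4.96 and 3.35 conversions each, while the median was 1.09 over the member intervals and 1.04 over all intervals. For H4C3 the tables list 28977 conversions within the interval for 32202 T>C reads, fewer than 1 conversion per T>C read, so some of its T>C reads carry the conversion outside the interval. The labelled share is therefore compared between groups within a gene and not between genes.

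The labelled share of H4C3 rose with THZ531, alone and together with Endovion, while the differences with SRPIN340 or Endovion alone were not called. Called means an adjusted p under 0.05 (edgeR quasi-likelihood test, Benjamini-Hochberg over all genes tested), and log2 differences are given with their SE. Its labelled share was 3.55% and 3.49% in control, 3.59% and 3.64% with SRPIN340, 3.54% and 3.43% with Endovion, 4.85% and 4.33% with THZ531, and 4.48% and 4.55% with THZ531 and Endovion. The 4 libraries with THZ531 lay above the 6 without it, by more than the width of the 95% Wilson intervals of single libraries, which was at most 0.34 percentage points and covers counting error only. Conversions per covered T gave the same order, with 0.411% and 0.444% in control, 0.561% and 0.513% with THZ531 and 0.506% and 0.512% with THZ531 and Endovion, against 0.399% to 0.45% in the SRPIN340 and Endovion libraries. The share over all genes was 5.04% to 5.63% in the 4 libraries with THZ531 and 5.06% to 5.7% in the 6 others.

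The share was tested as the ratio of T>C reads to reads without T>C, against that of the whole library. Log2 differences given for a share, here and below, are changes of this ratio and not of the percentage. In this test H4C3 rose with THZ531 by 0.51 ± 0.07 (log2, SE, adjusted p = 0.00024) and with THZ531 and Endovion by 0.57 ± 0.08 (adjusted p = 5.3e-05). The differences were 0.21 ± 0.08 with SRPIN340 (adjusted p = 0.36) and 0.23 ± 0.08 with Endovion (adjusted p = 0.21), and THZ531 with Endovion against Endovion gave 0.33 ± 0.08 (adjusted p = 0.25). No other member was called for its share. Both calls were kept without any single library, at adjusted p-values of up to 0.019 and 0.031. Both were lost when overlapping intervals of a gene were counted again (adjusted p = 0.15 and 0.074), and with raw library totals as the scale the THZ531 difference was 0.4 (adjusted p = 0.075) and that of the pair 0.37 (adjusted p = 0.043).

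**Figure D2:**
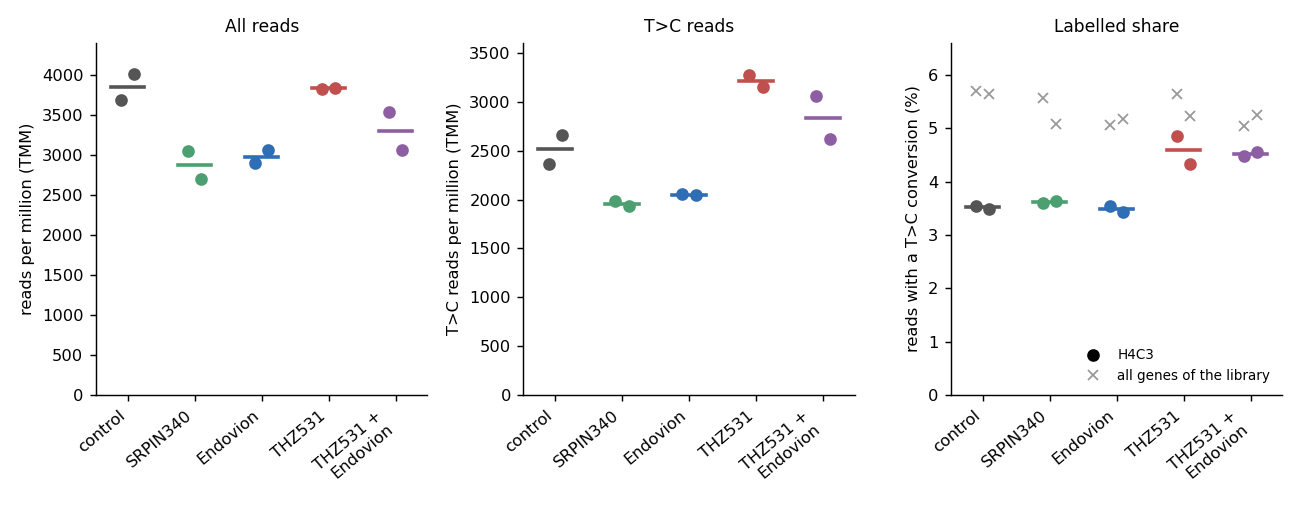
H4C3 in the 10 libraries (points) with the mean of each group (bars). Left, CPM of all reads. Middle, CPM of T>C reads, relative to all T>C reads of the library. Both use TMM-scaled library sizes. Right, labelled share in percent, with crosses for all genes of the same library. The THZ531 libraries reach 4.33% and 4.85% and the control libraries 3.49% and 3.55%.

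H4C3 had 3671 and 3320 T>C reads in control, 2931 and 3085 with SRPIN340, 2676 and 2123 with Endovion, 5023 and 3103 with THZ531, and 3608 and 2662 with both. Its nascent level, in CPM of T>C reads, was 2363 and 2664 in control, 3269 and 3155 with THZ531, 3057 and 2618 with THZ531 and Endovion, 1983 and 1931 with SRPIN340, and 2053 and 2042 with Endovion. The THZ531 libraries lay above control and those of either SRPK1 inhibitor below it, without overlap, but none of these nascent differences was called. They were 0.35 ± 0.13 with THZ531 (adjusted p = 0.095, and 0.048 with DESeq2), -0.36 ± 0.13 with SRPIN340 (adjusted p = 0.24) and -0.3 ± 0.13 with Endovion (adjusted p = 0.29). Its total level, in CPM of all reads, was 3686 and 4008 in control, 3821 and 3840 with THZ531, 3531 and 3064 with THZ531 and Endovion, 3051 and 2693 with SRPIN340, and 2892 and 3061 with Endovion. Levels with THZ531 lay within the control range, at a difference of -0.01 ± 0.11, while total H4C3 fell by 0.37 ± 0.11 with Endovion (adjusted p = 0.041) and the difference with SRPIN340 was -0.42 ± 0.11 (adjusted p = 0.058). The Endovion call was lost without control library 2 (adjusted p = 0.19), without either Endovion library (0.16 and 0.081) or either SRPIN340 library (0.059 each), in a fit of the 2 groups alone (0.098), and with overlapping intervals counted again (0.05 after rounding). The SRPIN340 difference passed with DESeq2 (adjusted p = 0.011), without the filter on low counts (0.0015), with each interval tested separately (0.047), without control library 1 (0.029) and without either THZ531 library (0.044 and 0.042).

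H1-10, a linker histone variant expressed in most cells, was called in no comparison. It had 205 and 143 T>C reads in control, 182 and 152 with SRPIN340, 152 and 86 with Endovion, 122 and 81 with THZ531, and 132 and 81 with both. Its nascent level in CPM was 132 and 115 in control, 123 and 95.1 with SRPIN340, 117 and 82.7 with Endovion, 79.4 and 82.4 with THZ531, and 112 and 79.7 with both. The THZ531 libraries lay below both control libraries, at a nascent difference of -0.61 ± 0.24 (adjusted p = 0.12). Its total level in CPM was 209 and 221 in control and 166 to 196 in the 8 treated libraries, which did not overlap with control, at uncalled total differences between -0.21 ± 0.11 with Endovion (adjusted p = 0.24) and -0.28 ± 0.11 with SRPIN340 (adjusted p = 0.18). The total difference with both compounds, -0.27 ± 0.11 (adjusted p = 0.072), passed with each interval tested separately (0.042), without either THZ531 library (0.033 and 0.032) and without library 1 of the pair (0.044). H1-4, a linker histone of the S phase cluster, had 104 reads and 1 T>C read in all, with 3 and 28 reads in the control libraries, and its total differences were not called, except that with Endovion when control library 1 was left out (-2.94, adjusted p = 0.041).

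**Figure D3:**
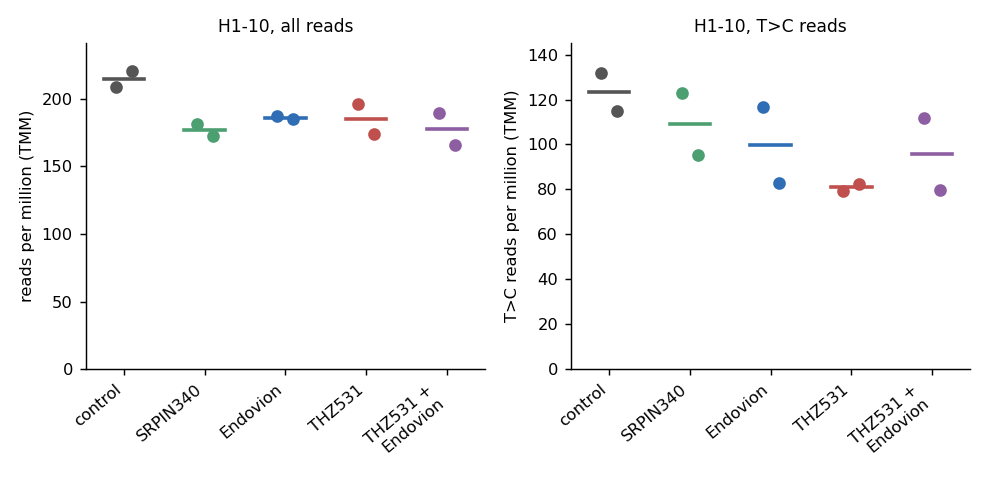
H1-10 in the 10 libraries (points) with group means (bars): CPM of all reads (left) and of T>C reads (right), both with TMM-scaled library sizes. In all reads the 8 treated libraries lie below both control libraries, and in T>C reads the SRPIN340 and Endovion groups overlap with control.

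Among the H2A genes, H2AC25, a cluster gene on chromosome 1 with both a stem-loop and an ATTAAA signal, had most reads, 5377, of which 6.71% were labelled. Its T>C reads were 49 and 25 in control, 39 and 42 with SRPIN340, 36 and 39 with Endovion, 50 and 23 with THZ531, and 29 in each library of both compounds. The groups overlapped, and no difference was called, the total one with both compounds being 0.29 ± 0.18 (adjusted p = 0.24). H2AC6, an H2A gene on chromosome 6, had 71 reads in the interval with its stem-loop and 1035 in an interval downstream that ends at an AATAAA. Its total level in CPM was 3.49 and 2.19 in control, 3.18 and 4.48 with SRPIN340, 5.36 and 5.84 with Endovion, 4.98 and 5.09 with THZ531, and 7.46 and 3.77 with both. Total H2AC6 rose by 0.98 ± 0.33 with both compounds (adjusted p = 0.037), and the differences were 0.97 ± 0.33 with Endovion (adjusted p = 0.07) and 0.82 ± 0.33 with THZ531 (adjusted p = 0.074). The call rested on library 1 of the pair, without which the difference was 0.34 (adjusted p = 0.55), and was also lost without control library 2 (0.28), without either Endovion library (0.053 each) and in a fit of the 2 groups alone (0.07).

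T>C reads of H2AC6 were 7 and 11 in control, 12 and 9 with SRPIN340, 7 and 17 with Endovion, 8 and 12 with THZ531, and 14 and 4 with both, and the groups overlapped. H2AC11, another H2A gene of chromosome 6, had 24 and 21 T>C reads in control, 18 and 11 with SRPIN340, 13 and 16 with Endovion, 36 and 23 with THZ531, and 30 and 17 with both. Its labelled share stayed between 20.4% and 58.8% in every library, control included, and no difference was called. H2AC13 and H2AC8, with 84 reads each, were tested for all reads only and were not called.

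Summed over the 13 H2B genes with an interval, 3736 reads in all, the labelled share was 8.74% and 8.33% in control, 8.4% and 9.57% with Endovion, 13% and 11.7% with SRPIN340, 20.4% and 19.4% with THZ531, and 20.7% and 17.1% with both. The 4 libraries with THZ531 were the highest of the 10. The sum rests on few T>C reads, 25 to 95 per library, and was not tested. That order rests on H2BC5, H2BC8 and H2BC15, described below. Without these 3 genes, an alternative chosen after seeing the data, the share was 9.4% and 11% in control, 11.4% and 10.8% with SRPIN340, 6.64% and 8.65% with Endovion, 13.5% and 12.7% with THZ531, and 9.64% and 5.0% with both, so that those of THZ531 alone stayed the highest and those of both compounds overlapped with the others. The H1 and H2A sums ranged from 2.29% to 3.74% and from 6.95% to 11.4%, where the libraries with THZ531 overlapped with the others.

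H2BC15, an H2B gene of chromosome 6, had 2 intervals that lie 12653 bases apart. The interval beside the gene, chr6:27839043-27839482, holds the stem-loop shown above and no hexamer. It had 18 and 10 reads in control, 17 and 21 with SRPIN340, 7 and 11 with Endovion, 26 and 27 with THZ531, and 58 and 39 with both. All 4 libraries with THZ531 lay above the 6 others. Tested by itself, all reads on this interval rose by 2.05 ± 0.53 with both compounds against control (adjusted p = 0.0088) and by 2.51 ± 0.56 against Endovion alone (adjusted p = 0.0074), and THZ531 alone gave 1.11 ± 0.54 (adjusted p = 0.13).

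The downstream interval of H2BC15, chr6:27852135-27855709, ends at an AATAAA and had fewer reads with THZ531. It had 40 and 34 reads in control, 40 and 46 with SRPIN340, 25 and 31 with Endovion, 11 and 10 with THZ531, and 13 and 18 with both. All reads on it fell by 1.65 ± 0.52 on the log2 scale with THZ531 (adjusted p = 0.023), and both compounds gave -0.97 ± 0.5 (adjusted p = 0.16). Of its reads 6.72% were labelled. These interval tests were added after the data had been seen, and the difference between the intervals was not tested.

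**Figure D4:**
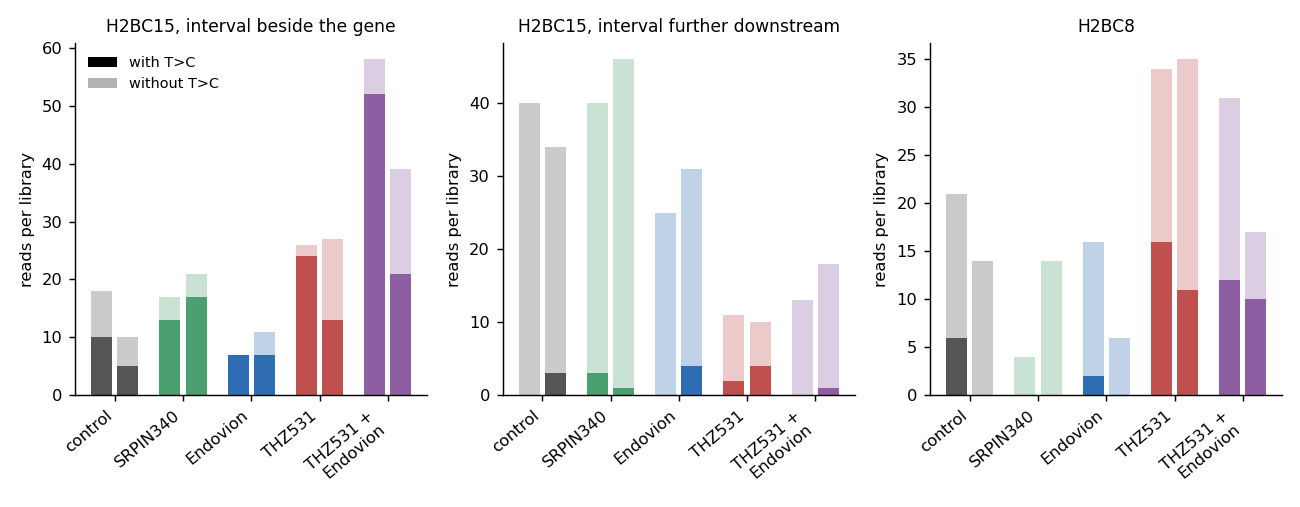
Reads per library on the interval of H2BC15 beside the gene (left), on its interval further downstream (middle) and on H2BC8 (right), 2 bars per group in library order. The dark part of a bar counts T>C reads and the pale part reads without a conversion. The highest bar of the left panel, 58 reads, is library 1 of THZ531 with Endovion, and the lowest bars of the middle panel are those with THZ531.

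Summed over both intervals, H2BC15 had 10 and 8 T>C reads in control, 16 and 18 with SRPIN340, 7 and 11 with Endovion, 26 and 17 with THZ531, and 52 and 22 with both compounds. Nascent H2BC15 rose by 2.34 ± 0.6 with both compounds (adjusted p = 0.0067), and THZ531 gave 1.4 ± 0.61 (adjusted p = 0.16). The gene passed the filter on T>C reads through treated groups, where it was higher than in control. Its difference is therefore no independent instance of a pattern. The call was lost without library 1 of the pair (1.74, adjusted p = 0.25), without control library 2 (adjusted p = 0.056) and with overlapping intervals counted again (0.073). All reads of the gene were not called, at 0.63 ± 0.36 with both compounds (adjusted p = 0.2). Of the 187 T>C reads of H2BC15, 169 lay on the interval beside the gene. There 16.6% and 3.62% of covered T were converted in the control libraries, against 0.211% to 0.25% over all genes of a library. Tested by itself, the ratio of T>C reads to reads without T>C on that interval gave 1.49 ± 1.48 (log2) with both compounds against control (adjusted p = 0.75). Whether these T>C reads come from the 10 min of labelling was not tested.

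H2BC8, whose interval ends in a run of A, had 6 and 0 T>C reads in control, 0 and 0 with SRPIN340, 2 and 0 with Endovion, 16 and 11 with THZ531, and 12 and 10 with both. The gene passed the filter on T>C reads through the THZ531 groups, where it was high, so that its difference is no independent instance of a pattern, and it was not called (nascent 2.34 ± 1.16 with THZ531, adjusted p = 0.23, and 2.23 ± 1.18 with both, adjusted p = 0.26). H2BC5, an H2B gene with a stem-loop and an AATAAA in a 91-base interval and a second interval downstream with 134 reads, had over both intervals 1 T>C read in each control library, 11 and 6 with SRPIN340, 7 and 2 with Endovion, 14 and 8 with THZ531, and 4 and 5 with both, so that every treated library exceeded control. In the 91-base interval alone the counts were 9 and 4 with SRPIN340 and 6 and 1 with Endovion, the last equal to control. This gene too passed the filter through the treated groups. The nascent difference with THZ531 was 3.43 ± 1.31 (adjusted p = 0.097). All reads were 4.74 and 4.08 CPM in control and 4.02 and 3.49 with THZ531.

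H2BC21, an H2B gene of chromosome 1 with a long 3′ end past its stem-loop, had a total level of 3.39 and 3.07 CPM in control, 4.68 and 5.5 with SRPIN340, 5.13 and 5.39 with Endovion, 6.6 and 4.99 with THZ531, and 8.95 and 4.24 with both. All treated libraries lay above control. Total H2BC21 rose by 1.03 ± 0.31 with both compounds (adjusted p = 0.021), while the differences were 0.85 ± 0.31 with THZ531 (adjusted p = 0.051), 0.7 ± 0.32 with Endovion (adjusted p = 0.16) and 0.65 ± 0.31 with SRPIN340 (adjusted p = 0.27). Without library 1 of the pair the difference was 0.33 (adjusted p = 0.51), and without control library 2 the call was lost (0.12). The total THZ531 difference passed with DESeq2 (adjusted p = 0.049). Its T>C reads, 15 and 12 in control, 17 and 28 with SRPIN340, 13 and 13 with Endovion, 25 and 9 with THZ531, and 16 and 4 with both, gave no call. Its labelled share was 15.8% and 16.4% in control, 14% and 9.68% with THZ531 and 7.84% and 4.94% with both, lower than control and without a call. H2BC4 and H2BC11 were tested for all reads and not called, the first at -1.33 ± 0.5 with both compounds (adjusted p = 0.054) and the second at -1.2 ± 0.51 with THZ531 (adjusted p = 0.085). All reads on the stem-loop interval of H2BC4, tested by itself, fell by 1.93 ± 0.58 with both compounds (adjusted p = 0.02). The gene as a whole passed with the replicate block (0.035), with overlapping intervals counted again (0.031) and without the filter on low counts (0.035), and H2BC11 passed with THZ531 without control library 2 (0.018).

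H3 had the fewest reads of the core histones, 900 in all. H3C10, an H3 gene of chromosome 6, had 811 of them, at 3.74 and 3.41 CPM in control and 4.3 and 2.2 with both compounds, and H3C6 had 87 reads without any T>C read. The H4 genes H4C11 and H4C5, which encode the same core histone as H4C3, had 380 and 69 reads. None of these 4 was called for all reads, and none passed the filter on T>C reads, so the labelling of H4C3 has no counterpart from another H4 gene here.

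**Figure D5:**
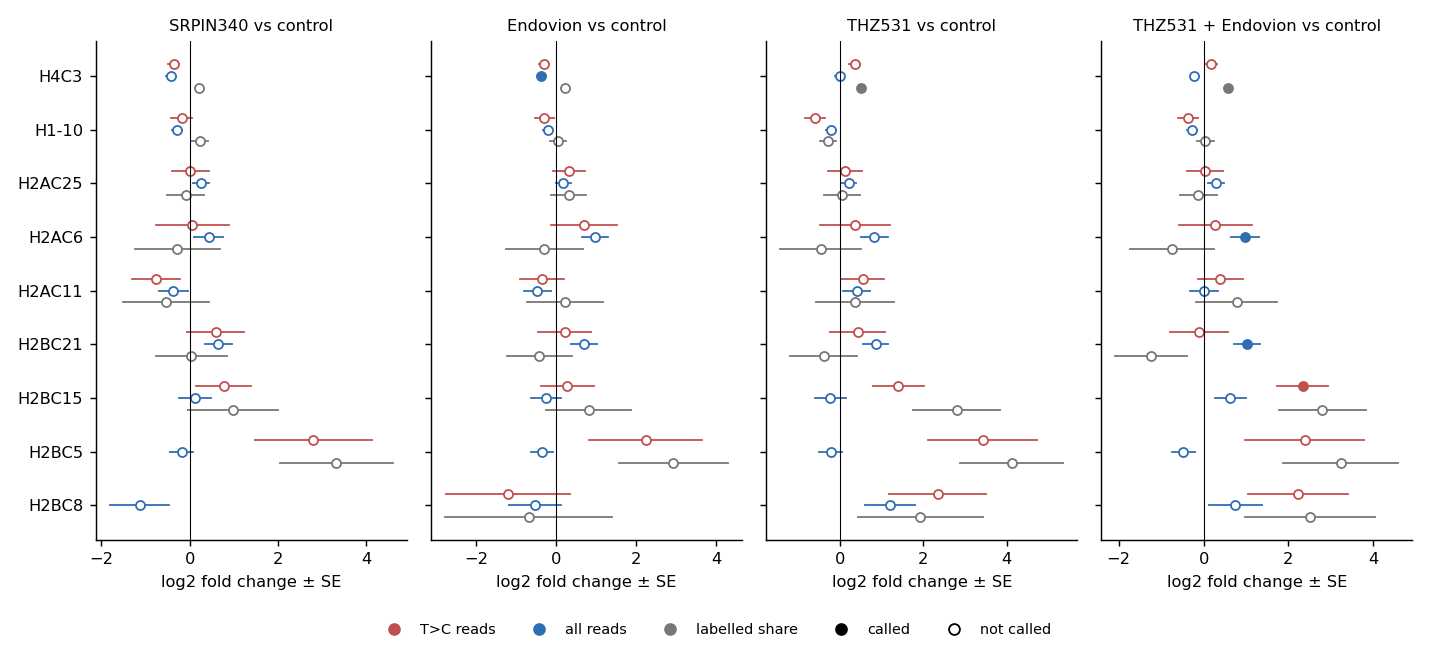
Log2 fold change against control with its SE for the 9 members tested for T>C reads, in 4 treatments: T>C reads (red), all reads (blue) and labelled share (grey). The share is drawn as the change in the ratio of T>C reads to reads without T>C. Filled points were called at an adjusted p under 0.05 over all genes. H2BC8 with SRPIN340 is shown for all reads only, because both SRPIN340 libraries had 0 T>C reads. Filled points belong to H4C3, H2AC6, H2BC21 and H2BC15.

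With SRPIN340 no member was called for T>C reads, where 1.04% of 9946 genes were, nor for all reads (1.97% of 14689 genes) or labelled share (0.181%). With edgeR 3 of 9 members had an unadjusted nascent p under 0.05, 2 of 18 a total p and 2 of 9 a share p, and DESeq2 called 0 nascent and 1 total. The share of all genes at an unadjusted p under 0.05 was not computed, so such counts, here and below, cannot be set against other genes. The 3 members include H2BC5 and H2BC8, which passed the filter on T>C reads through the treated groups. The median nascent difference of the members was 0.02 on the log2 scale (0.04 without H2BC8) beside -0.01 for all genes, and the median total difference was -0.28 beside 0.03 (-0.04 without control library 1). The 3 members with most T>C reads gave nascent differences of -0.36 ± 0.13 (H4C3, adjusted p = 0.24), -0.18 ± 0.24 (H1-10, 0.84) and 0.02 ± 0.41 (H2AC25, 1.0).

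With Endovion 0 of 9 members were called for T>C reads (2.66% of all genes called), with 1 at an unadjusted p under 0.05 in edgeR and 0 called by DESeq2. The same 3 members gave nascent differences of -0.3 ± 0.13 (H4C3, adjusted p = 0.29), -0.3 ± 0.24 (H1-10, 0.63) and 0.32 ± 0.41 (H2AC25, 0.8). For all reads 1 of 18, H4C3, was called, lower (11.4% of all genes). None was called for its share (0.292% of all genes), with 2 of 9 at an unadjusted p under 0.05 in edgeR. DESeq2 was not run on shares. The members' median was 0.21 for T>C reads beside -0.01 for all genes (-0.25 without Endovion library 2), and -0.32 for all reads beside 0.02 (-0.16 without Endovion library 2).

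With THZ531 0 of 9 members were called for T>C reads (7.46% of all genes), with 5 at an unadjusted p under 0.05 in edgeR, and DESeq2 called 1, H4C3. These 5 include H2BC5, H2BC8 and H2BC15, which passed the filter on T>C reads through the treated groups. The nascent differences of H4C3 and H1-10 are given above, and that of H2AC25 was 0.12 ± 0.41 (adjusted p = 0.92). For all reads 0 of 18 were called (30.7% of all genes), with 3 at an unadjusted p under 0.05 and 1, H2BC21, called by DESeq2, and 1 of 9 was called for its share, H4C3, higher (0.312% of all genes). Whether members were called less often than other genes was not tested. The members' median was 0.42 for T>C reads beside -0.02 for all genes (0.39 without H2BC8), -0.12 for all reads beside -0.01 (0.24 without control library 1 and -0.22 without H2BC8), and 0.35 for the share beside 0.01 (0.2 without H2BC8).

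With THZ531 and Endovion 1 of 9 members was called for T>C reads, H2BC15, higher (8.1% of all genes). H2BC15 passed the filter on T>C reads through the treated groups. For all reads 2 of 18 were called, H2AC6 and H2BC21, both higher (29.0% of all genes). For its share 1 of 9 was called, H4C3, higher (1.05% of all genes). The members' median was 0.28 for T>C reads beside -0.01 (0.06 without library 1 of the pair and 0.66 without library 2), -0.25 for all reads beside 0.0 (0.1 without control library 1), and 0.57 for the share beside 0.03 (0.3 without H2BC8 and -0.07 without the filter on low counts).

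Against THZ531 alone, THZ531 with Endovion called no member, with 0 for T>C reads (0.322% of all genes), all reads (0.511%) and share (0.0%), with 0, 1 and 0 members at an unadjusted p under 0.05 in edgeR and 0 in DESeq2 for T>C and all reads. The nascent differences were -0.18 ± 0.13 for H4C3 (adjusted p = 0.83), 0.25 ± 0.25 for H1-10 (0.89) and -0.1 ± 0.42 for H2AC25 (0.98). Against Endovion alone, both compounds called 0 members for T>C reads (1.31% of all genes), all reads (8.22%) and share (0.0%), with 3, 1 and 1 at an unadjusted p under 0.05, and DESeq2 called 1 nascent and 0 total. H2BC8 and H2BC15, which passed the filter on T>C reads through treated groups, are among the 3 for T>C reads. In that comparison nascent H4C3, at 2053 and 2042 CPM with Endovion against 3057 and 2618 with both, gave 0.47 ± 0.13 (adjusted p = 0.064), which passed with DESeq2 (0.023), with the replicate block (0.037) and without either control library (0.038 and 0.039). H1-10 gave -0.06 ± 0.25 (adjusted p = 0.98) and H2AC25 -0.29 ± 0.42 (adjusted p = 0.89). A test of whether Endovion acted differently with and without THZ531, added after the data had been seen, called 0 members in edgeR, with 0, 1 and 1 members at an unadjusted p under 0.05 for T>C reads, all reads and share and lowest adjusted p-values of 0.69, 0.37 and 0.77.

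SLBP and ERI1 rose and CPSF2 fell among the factors that make and process histone mRNA, of which 13 of 15 listed were tested. SLBP, the protein that binds the stem-loop, rose in nascent RNA by 0.76 ± 0.21 with Endovion (adjusted p = 0.03), 0.77 ± 0.21 with THZ531 (adjusted p = 0.013) and 1.04 ± 0.21 with both (adjusted p = 0.00046), and in total RNA by 0.78, 1.11 and 1.27 (adjusted p = 0.019, 0.00097 and 0.00046). ERI1, an exonuclease that trims histone mRNA ends, rose in total RNA by 0.98 with THZ531 and 0.99 with both. NPAT, a coactivator of histone genes, and ZNF473, a zinc finger protein of the U7 particle, fell in total RNA with THZ531 by 0.75 and 0.58, and CPSF2, a subunit of the cleavage complex, fell by 0.66 with THZ531 and 0.56 with both, and in nascent RNA by 1.0 with THZ531. SYMPK, the scaffold of that complex, fell by 0.45 with both. In total RNA 2 of these 13 rose and 3 fell with THZ531, and 2 rose and 2 fell with both. With Endovion 1 rose, beside 11.4% of all genes called. With SRPIN340 edgeR called 0 of them for all reads and 0 for T>C reads, beside 1.97% and 1.04% of all genes. The 5 and 4 of 13 called with THZ531 and with both stand beside 30.7% and 29.0% of all genes called in total RNA, and whether the list differs from that background was not tested. The median total difference of the list was 0.08 with THZ531 and -0.09 with both.

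Of the replication-independent histone variants, 9 of 10 were tested for all reads, with a median between -0.03 and 0.1 in the 4 treatments. CENPA, the centromeric H3 variant, rose in total RNA with Endovion by 0.66 ± 0.19 (adjusted p = 0.037), and H2AZ2 and H2AX rose with THZ531 by 0.34 ± 0.11 (adjusted p = 0.028) and 0.4 ± 0.15 (adjusted p = 0.05 after rounding). No variant was called in nascent RNA, in the share or with SRPIN340 or both compounds. In total RNA 1.97% of all genes were called with SRPIN340, 11.4% with Endovion, 30.7% with THZ531 and 29.0% with both. Over these 4 treatments 1.04% to 8.1% of all genes were called in nascent RNA and 0.181% to 1.05% for the share. Whether the variants differ from that background was not tested.

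Of the histone chaperones, 21 of 22 were tested for all reads, and 3 rose with Endovion, 7 rose and 3 fell with THZ531, and 8 rose with both, with list medians of 0.19, 0.08 and 0.03, where 11.4%, 30.7% and 29.0% of all genes were called. RBBP7, a chaperone of H3 and H4, rose by 0.75, 0.88 and 1.04 in the 3 treatments, ASF1A, which hands over H3 and H4, by 1.24, 1.16 and 1.24, and MCM2, a helicase subunit that binds H3 and H4, by 1.09, 1.09 and 1.1. TONSL, HAT1, NAP1L1 and ANP32E rose with THZ531 and with both compounds by 0.42 to 1.11, and SUPT16H, a FACT subunit, by 0.35 with both. The assembly factor genes CHAF1A and CHAF1B fell with THZ531 by 0.57 and 0.4, and MMS22L by 0.9. In nascent RNA ASF1B fell by 0.63 with THZ531 and RBBP7 rose by 0.6 with both. The labelled share of MCM2 fell in all 4 treatments, by 0.68 with SRPIN340, 0.79 with Endovion, 0.71 with THZ531 and 0.79 with both. Against Endovion alone, both compounds lowered total ASF1B by 0.53, MMS22L by 0.8 and, among the processing factors, CPSF2 by 0.54.

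Genes of S phase, when clustered histone genes are mostly transcribed, went in both directions, with 3 of 21 up and 3 down in total RNA with THZ531 and 3 up and 2 down with both compounds, at medians of 0.01 and 0.07. These 6 and 5 of 21 stand beside 30.7% and 29.0% of all genes called. PCNA, the replication clamp, rose by 0.53 and 0.42, CCNE2, a cyclin of the G1 to S transition, by 1.39 and 1.46, and POLA1, the catalytic subunit of DNA polymerase alpha, by 0.6 and 0.76, the last also with Endovion by 0.61. CDC6, which loads the replicative helicase, fell by 0.48 and 0.55, CDT1 and E2F2 fell with THZ531 by 0.66 and 0.54, and POLE fell with both by 0.41. Against Endovion alone, CDC6 fell by 0.48 with both compounds. In nascent RNA PCNA rose by 0.66 with THZ531 and 0.79 with both, where its labelled share also rose by 0.54, and CCNE2 rose by 1.28 with THZ531. No gene of this list was called with SRPIN340, where 1.04% of all genes were called for T>C reads, 1.97% for all reads and 0.181% for the share. The share of cells in S phase was not measured in these libraries.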

How the data were processed

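Per the labels and the methods, 10 libraries of 22RV1 cells were made with a 3′ mRNA kit primed from poly(A) after alkylation with iodoacetamide, with unique molecular identifiers (whether the counts use them is not given in the sources used here), and sequenced as single-end reads. The authors mapped reads to hg38 with SLAM-DUNK (version and settings not given in the sources used here) and deposited, for each library, counts of reads, of T>C reads, of covered T and of conversions for 104653 intervals. The deposited fraction of converted T positions per interval was used only to check the columns. The submitters' processing notes also list Bowtie2 2.3.4.1, SAMtools 1.6 and DESeq2 1.38.2.

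Transcript identifiers were matched to GENCODE v44, with 92910 of the 96427 intervals on standard chromosomes matched and 3.53% of T>C reads on unmatched ones. Where intervals of a gene overlapped, that with the highest read count stood for them, and the remaining intervals were summed per gene. CPM of members uses TMM-scaled library sizes, while CPM of markers, of members at 0 reads and of unmatched intervals uses plain library totals. Counts were tested with edgeR 4.0.16 (quasi-likelihood, robust, TMM, filterByExpr, all 10 libraries, 5 residual degrees of freedom) for T>C reads (nascent), all reads (total) and the interaction of read class with treatment (share, relative to that of the library), and p-values were adjusted by Benjamini-Hochberg over all genes tested. A gene was called at an adjusted p under 0.05. Alternatives were DESeq2 1.42.0, other scalings, no filter, another summing, fits of 2 groups, the replicate number as a block and each library left out. The fits were tested on simulated data. Gene reads per library were 19315448 to 30047769, and shares of single libraries carry 95% Wilson intervals.

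The members and lists were chosen with earlier results of these data known. All members that passed the filter for all reads were named, with T>C counts per library for those tested as nascent, full statistics for called members or, where none was called, for the 3 with most T>C reads. Members that did not pass were counted, and named where they had a read in every library, and in the fixed lists the called genes were named. Intervals whose transcript was not matched, and 34 members without a matched interval, were left out. A gene that meets the rule and a sequence are not reported here, and the counts of members leave out that gene.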

Additional observations from a re-analysis of the deposited data

Results flagged for a closer look

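Of intervals that lie within a member gene but whose transcript identifier was not matched, and which entered no comparison, 2 had a treated group above both control libraries. The only other such interval, on H4C8 at chr6:26285034-26285187, had none. Several treatments and both read counts were looked at. The share of all intervals with such a pattern is not given here, so these 2 cannot be set against other intervals. On an interval of H4C8, chr6:26281055-26281587 on the - strand of hg38, the THZ531 libraries had a mean of 0.6 CPM (15 and 13 reads) and the control libraries 0.375 (11 and 8 reads). There SRPIN340 had 13 and 5 reads and THZ531 with Endovion 9 and 0. The matched interval of H4C8 went the other way, with 11 and 8 reads in control and 0 and 0 with THZ531. On an interval of H2AC16, chr6:27865748-27865798 on the + strand, the SRPIN340 libraries had a mean of 2.38 CPM of T>C reads (5 and 2 reads), while both control libraries had 0. These differences rest on few reads and were not tested.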

How the results depend on the processing

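Of 318 recomputed counts of called members, 274 stayed within 1.5 times the value reported and 44 did not. Most of the reported values were 0, and a 0 that stayed 0 is among the 274, so that number does not measure how stable single calls were. For DESeq2, the other settings and each library left out, the share of all genes called is not given, above or below. Counts of members under these settings therefore cannot be set against other genes. For nascent RNA, counting overlapping intervals again left 0 members with both compounds, DESeq2 gave 1 with THZ531, and both compounds against Endovion gave 1 with DESeq2, with each interval tested separately and with the replicate block. For all reads, SRPIN340 gave 1 with DESeq2, without the filter and by interval. Endovion gave 2 without the filter and 0 with overlapping intervals counted again and in the fit of 2 groups. It also gave 0 without H4C3 in the table, which says nothing of stability because H4C3 was the only member called there. THZ531 gave 1 by interval and with DESeq2 and 2 without the filter. Both compounds gave 5 by interval and 1 in the fit of 2 groups against control, and 1 by interval against Endovion. For the share, THZ531 gave 0 and both compounds 0 with overlapping intervals counted again, and THZ531 gave 0 with raw library totals. The tests by interval and without H4C3 were chosen after seeing the data. Apart from the removal of H4C3, the cause of these changes was not tested.

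With each library left out in turn, nascent calls ranged from 0 to 1 with both compounds and 0 to 2 for both against Endovion. Total calls ranged from 0 to 1 with SRPIN340, 0 to 3 with Endovion, 0 to 2 with THZ531 and 0 to 4 with both, and share calls were 1 in every case with THZ531 and with both. Without control library 2 no nascent call was left with both compounds, nor any total call with Endovion or with both. The highest counts came without control library 1 (total, Endovion), library 2 of both compounds (total, THZ531), either THZ531 library (total, both) and either control library (nascent, both against Endovion).

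Signs turned for single genes without a call. With raw library totals the share difference was -0.01 for H4C3 and -0.2 for H1-10 with Endovion, -0.02 for H4C3 in both against THZ531 and 0.05 for H1-10 in both against Endovion, which was 0.0 in the fit of 2 groups, and scaling by all reads gave -0.01 for nascent H2AC25 with SRPIN340. Over the libraries left out, nascent H2AC25 ranged from -0.26 to 0.42 with SRPIN340 and -0.15 to 0.52 with THZ531. With THZ531, all reads ranged from -0.07 to 0.02 for H4C3 and -0.02 to 0.43 for H2AC25. Both against THZ531 ranged from -0.02 to 0.47 (H1-10) and -0.3 to 0.18 (H2AC25) for nascent RNA, -0.16 to 0.04 and -0.04 to 0.19 for all reads, and -0.03 to 0.07 (H4C3) and -0.45 to 0.11 (H2AC25) for the share. Both against Endovion ranged from -0.33 to 0.22 for nascent RNA of H1-10, -0.17 to 0.03 (H1-10) and -0.07 to 0.31 (H2AC25) for all reads, and -0.18 to 0.28 for the share of H1-10. The share ranged from 0.0 to 0.22 (H4C3), -0.05 to 0.43 (H1-10) and -0.34 to 0.11 (H2AC25) with SRPIN340 and from -0.33 to 0.25 (H1-10) with Endovion.

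Samples of the same replicate number did not deviate together (correlations of -0.0713 to 0.062 for T>C reads and -0.15 to 0.198 for all reads), and with the number as a block 1 nascent call appeared in both against Endovion and total calls with both against control were 3 in place of 2, the added one being H2BC4, lower. Members other than H4C3 and H1-10 had at most 52 T>C reads in any library, which limits what their nascent tests could detect.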
